A study of Mus musculus with 8 samples.

Results

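Eosinophils are granule-bearing leukocytes of type 2 immunity, and IFN-γ and TNF-α are the cytokines of type 1 inflammation. What 18 h of both cytokines together did to the messenger RNA of mouse blood eosinophils was measured by comparing 2 treated cultures (E1, 15 ng/mL, a figure the labels print once for the pair of cytokines) with 2 cultures that received no cytokine (CN). These 4 libraries, taken by their labels, are 4 of the 8 libraries of the series. The other 4 come from a second experiment and enter only the shared estimate of spread and the last comparison, in cells given IL-5 at 10 ng/mL (E0) or a mixture (E2) of 30 ng/mL IL-33 and, each at 10 ng/mL, IL-4, GM-CSF and IL-5. All groups are labelled C57BL/6, and all cells came from the blood of IL-5 transgenic animals (NJ.1638, a line whose T cells overproduce IL-5) according to the protocol, although the genotype label reads WT. The cells were depleted of CD90- and B220-bearing cells and judged over 97% pure by stain. Neither CN nor E1 was given IL-5 in culture, the 2 cytokines were never given singly, so that their effects cannot be told apart, and the labels give neither viability after culture nor whether the duplicates came from separate animals. The p-values therefore measure the spread between replicate libraries, pooled over all 8 libraries of the series. In CN and E1 that spread includes a difference of sex, given below. In bulk RNA, fewer cells of a type and less RNA per cell cannot be told apart.

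IFN-γ binds the IFNGR1 and IFNGR2 chains, whose kinases JAK1 and JAK2 phosphorylate STAT factors. Pairs of these bind GAS elements and switch on a first wave of genes such as IRF1, whose product binds the ISRE elements of a second wave. TNF-α acts through TNFR1 and TNFR2, which assemble TRAF and ubiquitin ligase complexes and release NF-κB from its IκB inhibitors, and many inflammatory genes carry sites for both families of factor.

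The CN and E1 libraries held 77623818 to 95065752 counts each, so 3 counts, the limit that a count of 0 allows, equal 0.0316 to 0.0387 CPM, the unit of level used here (counts scaled to a common library size). Intervals and limits here cover counting error only, and paired values are those of replicates 1 and 2 in that order (n = 2 a group). Eosinophil markers were abundant in all 4 libraries: their summed level was 9759 to 10290 CPM in CN and 7783 to 8842 CPM in E1, with Ccr3, the eotaxin receptor, at 2058 and 2097 CPM in CN and 2083 and 1977 CPM in E1. In both groups replicate 1 held Y-linked transcripts (Ddx3y 62.5 and 0 CPM in CN) and replicate 2 held Xist (0.0527 and 819 CPM), so the spread between replicates includes a difference of sex. Summed monocyte, macrophage and dendritic cell markers were at 1305 to 1583 CPM in CN and 5757 to 6198 CPM in E1, with 7 of 20 called higher and 3 lower (1 lower without CN replicate 1 or E1 replicate 1). In E1 most of that sum was Ly6c2 (4214 and 3784 CPM, against 92.8 and 105 CPM in CN), while Cd68, of macrophage lysosomes, was at 17.6 and 16.1 CPM in CN and 15.6 and 17.9 CPM in E1. C1qa and Marco were not analysed here. Summed neutrophil markers were at 3084 to 3534 CPM in CN and 1649 to 2251 CPM in E1, with 1 of 15 called higher and 7 lower, which was 3 without CN replicate 1 and 4 without E1 replicate 2. T cell markers summed to 17.7 to 20.0 CPM and NK cell markers to 23.2 to 31.2 CPM over the 4 libraries. The B cell list summed to 2450 to 2565 CPM, most of it Ptprc, which leukocytes in general express (2246 and 2222 CPM in CN, 2286 and 2212 CPM in E1). Basophil and mast cell markers summed to 49.7 to 80.2 CPM, and those of platelets and erythroid cells to 216.3 to 282.7 CPM.

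**Figure D1:**
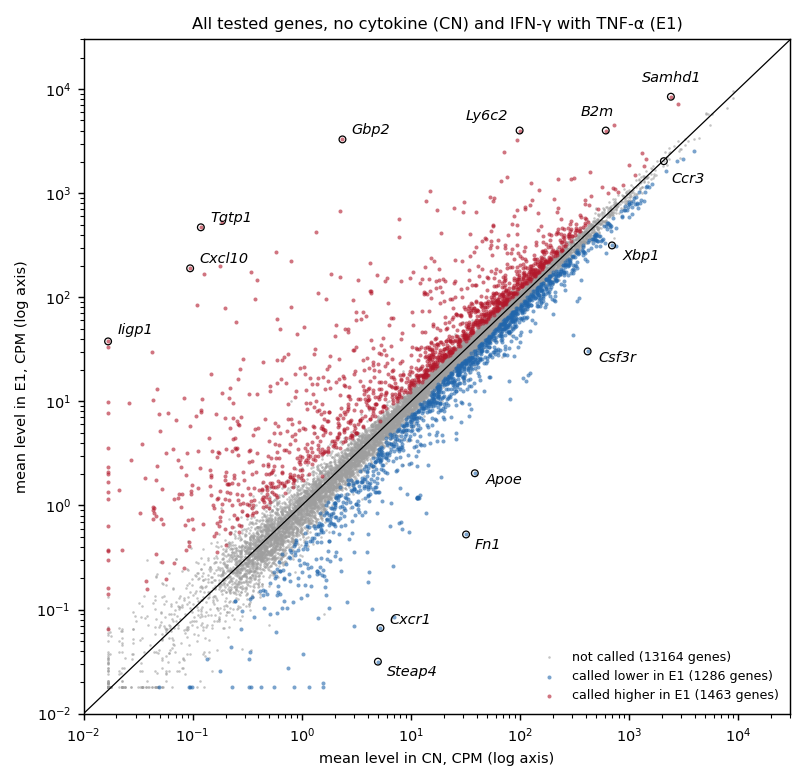
Mean level of each tested gene in CN (horizontal, CPM, log axis) and in E1 (vertical, CPM, log axis), with means under 3 counts over a group drawn at that limit. The 1463 genes called higher lie above the line of equality, some of them from the lowest levels in CN, and the 1286 called lower lie mostly closer to it.

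Rises outnumbered falls mainly among the largest changes. Of 15913 genes tested with edgeR's quasi-likelihood test, 17.3% were called at an adjusted p below 0.05, 9.19% higher and 8.08% lower, and the median log2 fold change of all genes was -0.01. At least 8-fold rises made up 1.53% of genes (243) and 8-fold falls 0.339% (54). At least 64-fold, the count was 56 genes higher and 9 lower. Of the 243 genes, 151 had been under 1 CPM without cytokine. Together they took 0.148% and 0.155% of all counts in the CN libraries and 3.74% and 3.54% in the E1 libraries, whereas the 54 genes that fell as far had held only 0.0776% and 0.0665% in CN. The groups did not overlap in 54.1% of all tested genes, so a lack of overlap alone says little. In all 2749 called genes the groups did not overlap. That alone fixes the same direction between the replicate 1 libraries and between the replicate 2 libraries, so the shared direction is no separate support. Scaling by library totals alone gave 1190 genes higher and 1891 lower, and by the upper quartile 1257 and 1831, so the higher share of calls went from 53.2% to 38.6% and 40.7%. Without CN replicate 1 the lower genes numbered 743.

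**Figure D2:**
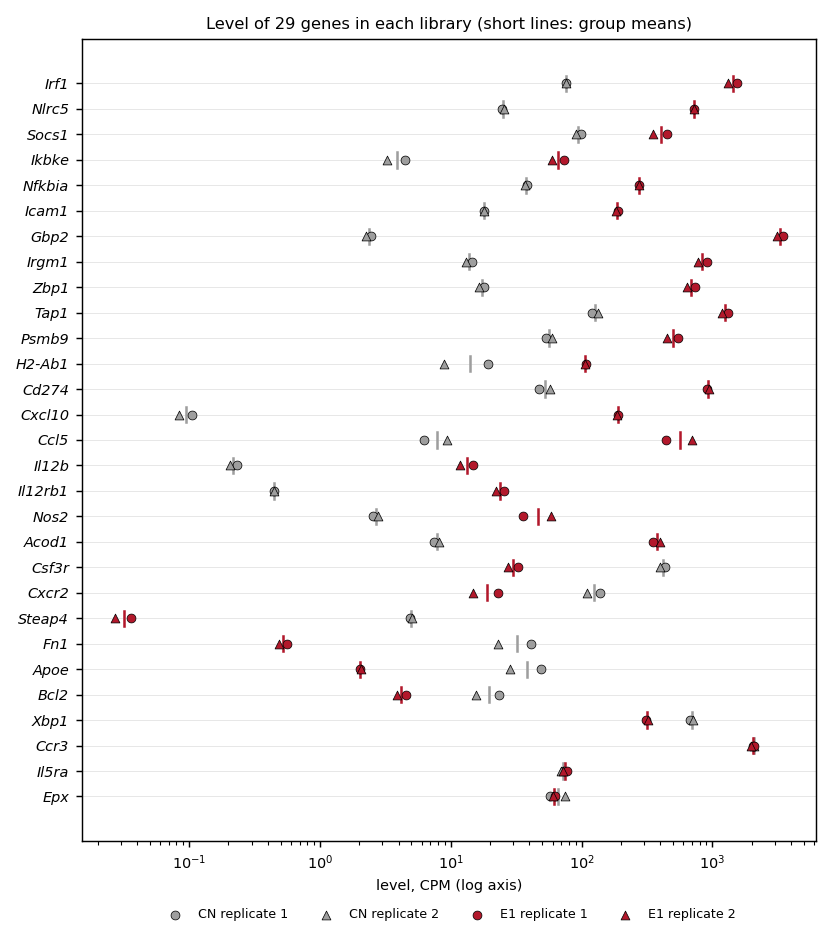
Level of 29 genes (CPM, log axis) in each CN library (grey) and E1 library (red), circles for replicate 1, triangles for replicate 2 and short lines for group means. The E1 points lie right of the CN points from Irf1 to Acod1 and left of them from Csf3r to Xbp1, and they meet or overlap for Ccr3, Il5ra and Epx.

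Some genes of interferon signalling rose, while the IFN-γ receptor chains, Jak1 and Jak2 were not called. Irf9 (ENSMUSG00000002325, chromosome 14, 55603571 to 55610030), the DNA-binding member of the ISGF3 complex, stood at 44.1 and 44.9 CPM in CN and 191 and 181 CPM in E1, a log2 fold change of 2.06 ± 0.07 (adjusted p = 6.52e-07). As for every gene called higher, both treated cultures lay above both untreated ones, here 4.18-fold in the fit. Of 15 tested receptor, JAK and STAT genes, 8 rose and 0 fell, with a list median of 0.49. Stat2, of the same complex, went from 89.7 and 74.0 to 296 and 241 CPM and rose by 1.71 ± 0.12. Stat3 rose by 1.26 ± 0.07, and Ifnar2, a chain of the type I interferon receptor, went from 66.2 and 71.2 to 136 and 140.4 CPM. The IFN-γ receptor chains were not called: Ifngr1 was at 141 and 124 CPM in CN and 110.2 and 110.4 CPM in E1 (-0.27 ± 0.08, adjusted p = 0.0534) and Ifngr2 at 0.24 ± 0.08. Ifngr1 was called lower without CN replicate 2 and with scaling by library totals or the upper quartile. Jak1 (-0.02 ± 0.08), Jak2 (-0.10 ± 0.10), Stat6 of the IL-4 pathway (0.23 ± 0.10) and Stat5b (0.01 ± 0.07) were not called either.

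Among the transcription factors that follow, 11 of 14 rose and 0 fell, with a list median of 1.57 against -0.01 for all genes. Irf1 stood at 75.8 and 76.4 CPM in CN and 1530 and 1325 CPM in E1 (4.23 ± 0.10, adjusted p = 1.09e-07). Nlrc5 (chromosome 8, 94434356 to 94527272), the transactivator of MHC class I genes, went from 24.6 and 25.4 to 722 and 726 CPM and rose by 4.85 ± 0.09. Batf2, an AP-1 family factor of inflammatory macrophages, went from 1.23 and 1.38 to 33.6 and 29.7 CPM. Irf7, the amplifier of type I interferon, rose by 4.05 ± 0.16, and Irf8, which directs monocyte and dendritic cell development, by 2.45 ± 0.21. Irf5 and Irf2 rose by 0.80 and 0.98. Irf3 (0.05 ± 0.09) and Irf4 (-0.33 ± 0.29), a factor of type 2 programmes, were not called.

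Inhibitors of the pathway split. Socs1, which blocks JAK kinases downstream of IFN-γ, went from 99.2 and 90.2 to 450.0 and 353 CPM (2.08 ± 0.16), and Usp18, which restrains the type I interferon receptor, from 4.02 and 3.30 to 78.7 and 66.6 CPM (4.31 ± 0.22). The phosphatase gene Ptpn2 rose by 0.47 ± 0.09. Socs2 fell by 0.96 ± 0.17, Socs3 by 0.54 ± 0.09 and Cish by 0.89 ± 0.07 on the log2 scale, the inhibitors best known as targets of STAT5 and STAT3. Of 17 inhibitors, 3 rose and 4 fell, beside 9.19% of all tested genes called higher and 8.08% lower. The fourth faller, Pias3 (-0.25 ± 0.06), was not called in any of the fits that omitted a library (adjusted p up to 0.108).

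Many TNF-α signalling genes rose. Of 24 tested members of the receptor complexes, 12 rose and 2 fell, and of 23 NF-κB subunits and feedback genes 16 rose and 0 fell, with medians of 0.27 and 0.71. Tnfrsf1a, which encodes TNFR1, went from 36.9 and 37.0 CPM to 72.9 and 78.8 CPM (1.04 ± 0.18). Tnfrsf1b, which encodes TNFR2, was at 129 and 113 CPM in CN and 179.8 and 172 CPM in E1 (0.54 ± 0.14, adjusted p = 0.0308), a call lost with scaling by library totals and without CN replicate 2 or either E1 library (adjusted p up to 0.145). Traf1, an adaptor induced by NF-κB, rose by 3.40 ± 0.14, and the ubiquitin ligases Birc3 and Birc2 by 1.05 ± 0.08 and 0.62 ± 0.09. Rnf31 and Sharpin, which belong to the linear ubiquitin assembly complex, rose by 0.80 and 0.50, and the kinase gene Ripk1 by 0.48. Of the 2 fallers, Tnfaip8 fell by 0.58 ± 0.09, and Traf5 (-0.39 ± 0.09) was not called in any fit that omitted a library (adjusted p up to 0.103).

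The NF-κB genes that rose included inhibitors, kinases and subunits. Nfkbia, which encodes IκBα, went from 38.5 and 37.0 to 276 and 273 CPM (2.86 ± 0.10). Ikbke, an inducible IκB kinase that also acts in interferon signalling, went from 4.44 and 3.27 to 73.4 and 59.4 CPM (4.10 ± 0.18, adjusted p = 2.13e-06). The subunits of the alternative pathway, Relb and Nfkb2, rose by 2.00 ± 0.09 and 1.46 ± 0.06, while Nfkb1 (0.08 ± 0.07) and the kinase genes Ikbkb (0.02 ± 0.08) and Chuk (0.10 ± 0.08) were not called. The deubiquitinase Tnfaip3, also called A20, rose by 0.65 and Cyld by 0.77. Tifa, an adaptor of TRAF6, went from 2.18 and 1.96 to 50.5 and 58.1 CPM.

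The bases before the start site of 5 of these and later genes are shown because each stretch holds a match to one of the motifs that the 2 pathways use. These examples were chosen for their matches. They are 250 bases upstream of the annotated start from RefSeq on GRCm38.p6, written 5′ to 3′ in the direction of transcription, with the matches in capitals. The motifs searched, on both strands, were the ISRE core (GAAA, 2 bases of any kind, GAAA), the GAS form TTCNNNGAA and a κB form (GGGA, 2 bases of any kind, TTCC).
Gbp7, chr3:142530086-142530335, plus strand, GAS at -106 to -98 and -87 to -79, ISRE core in reverse at -53 to -44: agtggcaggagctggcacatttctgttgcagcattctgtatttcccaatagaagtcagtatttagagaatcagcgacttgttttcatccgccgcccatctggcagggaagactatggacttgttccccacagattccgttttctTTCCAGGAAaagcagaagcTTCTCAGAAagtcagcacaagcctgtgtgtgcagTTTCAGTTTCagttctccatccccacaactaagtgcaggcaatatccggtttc
Cxcl10, chr5:92348890-92349139, minus strand, ISRE core at -213 to -204 and κB form at -159 to -150: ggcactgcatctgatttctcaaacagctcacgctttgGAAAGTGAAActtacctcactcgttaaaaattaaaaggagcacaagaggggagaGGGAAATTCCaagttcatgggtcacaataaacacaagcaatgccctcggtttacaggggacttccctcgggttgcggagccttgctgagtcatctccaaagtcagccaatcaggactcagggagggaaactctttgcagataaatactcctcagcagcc
Irf1, chr11:53769764-53770013, plus strand, GAS at -90 to -82: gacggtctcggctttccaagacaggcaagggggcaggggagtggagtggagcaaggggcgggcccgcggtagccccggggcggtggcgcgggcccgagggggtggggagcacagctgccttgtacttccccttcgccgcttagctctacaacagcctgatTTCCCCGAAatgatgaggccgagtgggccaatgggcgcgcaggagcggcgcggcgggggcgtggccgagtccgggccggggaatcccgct
Icam1, chr9:21015690-21015939, plus strand, GAS at -42 to -34: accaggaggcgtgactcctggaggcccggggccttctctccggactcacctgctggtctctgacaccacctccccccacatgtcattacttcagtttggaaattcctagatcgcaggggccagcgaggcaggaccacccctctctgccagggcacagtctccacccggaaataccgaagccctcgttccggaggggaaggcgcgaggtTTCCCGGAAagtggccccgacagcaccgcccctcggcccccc
Nfkbia, chr12:55492648-55492897, minus strand, κB form in reverse at -29 to -20: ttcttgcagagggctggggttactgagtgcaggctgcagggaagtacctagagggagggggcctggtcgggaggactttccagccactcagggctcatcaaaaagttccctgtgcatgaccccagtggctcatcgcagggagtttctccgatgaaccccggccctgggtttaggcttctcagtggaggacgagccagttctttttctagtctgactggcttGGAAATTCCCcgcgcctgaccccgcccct
All 5 genes rose. A second window of Irf1, chr11:53770223-53770472, held no match. The windows of Cxcl9, Cd274 and Tap1 held none of the 3 letter patterns, although all of these genes rose. A match is a string of letters and not a measured binding site.

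**Figure D3:**
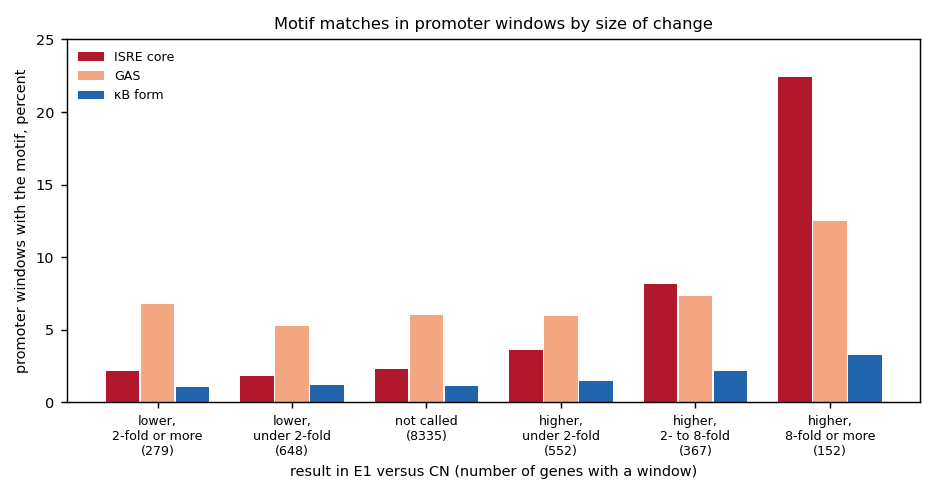
Share of promoter windows (percent, 1 window a gene, the 250 bases before the start) that hold each motif, by the gene's result in E1 versus CN, with the number of genes in brackets. The ISRE core is in 22.4% of windows of genes called at least 8-fold higher and in 2.32% of windows of genes not called.

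Over all genes, matches to the ISRE core went with the size of the rise. A RefSeq window, of which the 250 bases before the start were searched, was matched for 10333 tested genes. The ISRE core was in 22.4% of the 152 windows of genes called at least 8-fold higher, in 8.17% of the 367 called 2- to 8-fold higher, in 3.62% of those called higher by less and in 2.32% of those not called. The GAS form was in 12.5% of the first class, 7.36% of the second and 5.99% of genes not called, and the κB form in 3.29%, 2.18% and 1.12%. Genes called at least 2-fold lower held them at 2.15%, 6.81% and 1.08%. Of all 32851 windows in the table, 2.98% held the ISRE core, 7.02% the GAS form and 1.21% the κB form. These shares are descriptions without a test. Windows of similar genes that lie side by side were counted separately, and how alike these windows are was not tested. By family, the ISRE core was in the windows of 4 of 4 guanylate-binding proteins and 6 of 8 immunity-related GTPases with a window, in 0 of 6 class I peptide loading genes and in 0 of 6 immunoproteasome genes.

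**Figure D4:**
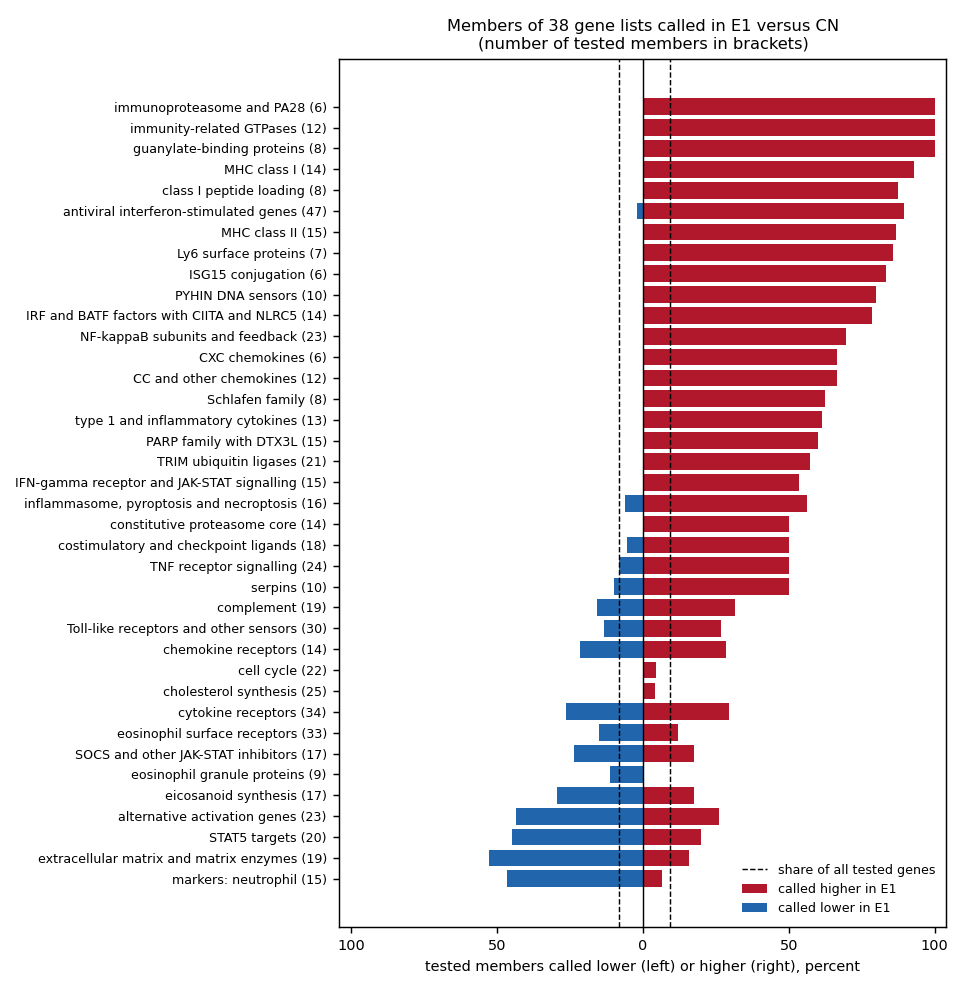
Percent of the tested members of 38 gene lists called lower (left, blue) or higher (right, red) in E1 versus CN, with the share of all tested genes as dashed lines (8.08% lower, 9.19% higher). The immunoproteasome and both GTPase lists reach 100% on the right, and the matrix, neutrophil marker, STAT5 target and alternative activation lists extend furthest left.

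GTPases that attack the vacuoles of intracellular pathogens were among the largest rises. All 8 tested guanylate-binding proteins and all 12 immunity-related GTPases rose, with median log2 fold changes of 7.32 and 7.16. Gbp2 had 2.46 and 2.26 CPM in CN and 3469 and 3102 CPM in E1. Per kilobase of exon it stood at 0.937 RPKM (CPM per kilobase) in CN and 1306 RPKM in E1. Tgtp1 and Tgtp2, near-identical copies whose reads may be shared, went from 0.105 and 0.132 to 559.8 and 380.0 CPM and from 0.158 and 0.216 to 614 and 444 CPM. Irgm1, a regulator that protects host membranes, went from 14.4 and 13.1 to 905 and 774 CPM (5.93 ± 0.12), and Igtp, also called Irgm3, from 16.5 and 13.6 to 1153 and 929 CPM. Iigp1, with no count in CN, was at 38.6 and 36.8 CPM in E1 and at least 2240-fold higher. Gbp7 and Gbp9, at 10.1 and 7.57 RPKM in CN the highest of their family, rose by 3.90 ± 0.09 and 2.97 ± 0.13, the smallest rises in it. Igtp overlaps Irgm2, and Gbp9 overlaps Gbp4, so their reads may be shared as well.

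Some of the genes that rose lay side by side. Of 240 genes with a position (GENCODE M21, mm10) that rose at least 8-fold, 70 lay in 12 groups of 4 or more with gaps of at most 500 kb. The groups were drawn around genes chosen because they rose, so the counts within them are a description. On chromosome 11, from 48861968 to 49135387, all 11 tested genes rose, among them Irgm1, Tgtp1, Tgtp2 and Ifi47. The Gbp genes formed a group on chromosome 3 (142530342 to 142638008, 5 of 5 higher) and another on chromosome 5 (105014150 to 105346472, 5 of 5). Cxcl9, Cxcl10, Cxcl11 and Art3 rose together on chromosome 5 (92321347 to 92414628, 4 of 4), as did the Oas genes (120730333 to 120907521, 6 of 6). In the Ly6 group of chromosome 15 (74669083 to 75159126) 12 of 17 genes rose. In the MHC stretch of chromosome 17 (34181987 to 35443773) 28 of 88 rose and 1 fell. The Ifit group on chromosome 19 (34550694 to 34650009) had 5 of 6 higher, and the exception, Ifit1bl2, was at 1.50 and 1.78 CPM in CN and 0.741 and 0.654 CPM in E1. The strand setting of the counting is not given, so reads of overlapping genes cannot be assigned, such as those of the microRNA gene Mir6381, which lies within Gbp2.

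Antiviral genes rose broadly. Of 47 tested, 42 rose and 1 fell, with a median of 2.22. Zbp1, a sensor of Z-form nucleic acid that can start necroptosis, went from 18.0 and 16.4 to 741 and 642 CPM (5.33 ± 0.10, adjusted p = 5.19e-08). Rsad2, which encodes viperin, went from 1.00 and 1.08 to 56.3 and 48.0 CPM, and Oas3, an oligoadenylate synthetase, from 4.00 and 2.55 to 159 and 135 CPM. Samhd1, an enzyme that depletes nucleotides, went from 2351 and 2470 to 8906 and 7988 CPM (1.81 ± 0.10). The RNA sensors Ifih1 (MDA5) and Ddx58 (RIG-I) rose by 2.54 and 1.72. The 1 faller was Ifitm6, from 8.74 and 5.90 to 2.39 and 1.87 CPM. Ifitm1 (-0.21 ± 0.18) and Ifitm2 (-0.49 ± 0.18) were not called.

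Related enzyme and sensor families rose too. In ISG15 conjugation, 5 of 6 genes rose: the modifier Isg15 went from 3.04 and 1.98 to 60.0 and 40.0 CPM and its conjugating enzyme Ube2l6 from 4.41 and 4.27 to 114 and 117 CPM. Of the PARP family 9 of 15 rose, led by Parp12 (3.97 ± 0.10), Parp9 (2.90 ± 0.09) and the partner of PARP9, Dtx3l (2.95 ± 0.08). Of the TRIM ligases 12 of 21 rose, with Trim21, an intracellular antibody receptor, at 2.76 ± 0.12 and Trim30a at 3.09 ± 0.19. Of the Schlafen genes 5 of 8 rose, with Slfn8 from 2.75 and 3.15 to 102 and 86.9 CPM. Of the PYHIN DNA sensors 8 of 10 rose, whereas Aim2, the inflammasome sensor of that family, was at 26.1 and 26.9 CPM in CN and 25.3 and 25.3 CPM in E1 (-0.07 ± 0.11, not called). Members of the last 3 families are similar copies, whose reads the counting could split.

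Most genes of the class I antigen presentation route rose. All 6 immunoproteasome and PA28 genes rose, with a median of 2.90, led by Psmb10 (36.2 and 32.8 to 473 and 344 CPM) and Psmb9 (53.7 and 59.8 to 543 and 454 CPM), subunits that alter how peptides are cut. The constitutive subunits they replace, Psmb5 (0.27 ± 0.15), Psmb6 (0.23 ± 0.11) and Psmb7 (0.23 ± 0.14), were not called. Of 14 genes of the constitutive core 7 rose, with the alpha subunit Psma5 at 36.5 and 35.9 CPM in CN and 138 and 122 CPM in E1 (1.85 ± 0.08), against a range from 0.23 for Psma1 to 0.67 for Psma7 among the other alpha subunits. Of 8 loading genes 7 rose. The peptide transporter Tap1 went from 121 and 133 to 1321 and 1190 CPM, Tapbpl, a peptide editor, rose by 3.35 ± 0.11, and the trimming enzyme Erap1 by 1.55 ± 0.07. Of 14 class I genes, which are alike in sequence, 13 rose. B2m, the light chain and often a reference gene, went from 600.4 and 619 to 4282 and 3714 CPM (2.71 ± 0.13).

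MHC class II genes rose from uneven starting levels. Of 15 tested, 13 rose and 0 fell, with a median of 2.35. H2-Aa had 23.8 and 10.0 CPM in CN and 124 and 120.3 CPM in E1, and the invariant chain Cd74 had 70.2 and 35.6 CPM in CN and 308 and 286 CPM in E1. In both genes CN replicate 1 lay well above CN replicate 2, the E1 libraries lay close together, and the groups, as in every called gene, did not overlap. Ciita, the switch of class II genes, went from 4.08 and 1.94 to 17.2 and 19.5 CPM (2.60 ± 0.30). Other constant parts of the class II enhanceosome, Rfxank (0.11 ± 0.10) and Rfxap (-0.07 ± 0.12), were not called, and Rfx5 rose by 1.26 ± 0.16. Whether cells of the monocyte, macrophage and dendritic series, whose markers are given above, had a part in this was not tested.

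Among costimulatory and checkpoint ligands, 9 of 18 rose and 1 fell, beside 9.19% of all tested genes called higher and 8.08% lower. Cd274, which encodes PD-L1, had 47.3 and 57.7 CPM in CN and 911 and 937 CPM in E1 (4.14 ± 0.15). Cd40, the receptor of CD40L, went from 0.432 and 0.144 to 28.1 and 22.6 CPM. Cd80 (33.2 and 35.3 to 32.2 and 35.1 CPM) and Cd86 (12.5 and 10.4 to 13.1 and 14.4 CPM), the ligands of CD28, were not called (-0.03 ± 0.13 and 0.27 ± 0.17). The ICOS ligand gene Icosl fell by 0.37 ± 0.06. Without E1 replicate 1, 3 of these ligands were called lower.

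Chemokine genes of the CXCR3 axis and Ccl5 rose. Cxcl10, a ligand of CXCR3 on type 1 lymphocytes, had 0.105 and 0.0841 CPM in CN and 192 and 188 CPM in E1. Cxcl9, of the same axis, had 2 counts over the CN libraries and 35.1 and 32.0 CPM in E1, a ratio of 2996 (95% interval 829 to 24740). Cxcl11 had none in CN and was at least 139.8-fold higher. Ccl5, a ligand of CCR3, went from 6.30 and 9.31 to 442 and 694 CPM (6.19 ± 0.30). Ccl22, a ligand of CCR4, rose from 0.980 and 0.517 to 36.8 and 19.8 CPM. Of the tested CXC chemokines 4 of 6 and of the CC and other chemokines 8 of 12 were called higher, and none lower. The neutrophil attractants Cxcl2 (0.64 ± 0.38) and Cxcl3 (0.97 ± 0.60) were not called. Ccl6, a ligand of CCR1 at 4341 RPKM in CN against 186 RPKM for the related Ccl9, was not called (-0.25 ± 0.10), while Ccl9 rose by 1.02 ± 0.12. In 5 of 14 alternative fits Ccl6 was called lower.

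**Figure D5:**
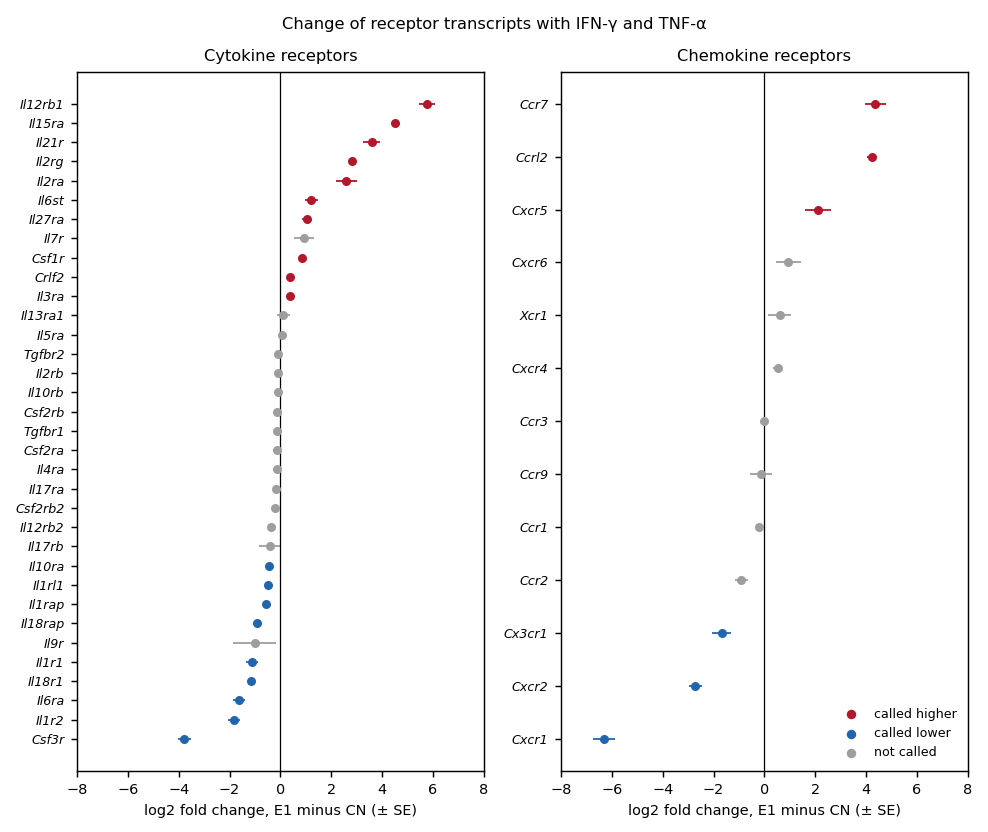
Log2 fold change (E1 minus CN) with its standard error for 34 cytokine receptors (left) and 13 of the 14 tested chemokine receptors (right), red where called higher, blue where called lower and grey where not called. Il12rb1 and Ccr7 lie furthest right, and Csf3r and Cxcr1 furthest left.

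Receptors changed in both directions. Of 14 chemokine receptors 4 rose and 3 fell, beside 9.19% of all tested genes called higher and 8.08% lower. Ccr7, which guides cells to lymph nodes, went from 2.76 and 1.30 to 51.3 and 32.9 CPM (4.37 ± 0.41), and Ccrl2, which binds chemerin, from 2.66 and 2.61 to 49.0 and 50.5 CPM (4.24 ± 0.19). The receptors of neutrophil attractants fell. Cxcr2, at 137 and 111 CPM in CN, fell by 2.72 ± 0.25 on the log2 scale, and Cxcr1 fell from 5.34 and 5.17 to 0.0239 and 0.109 CPM, near the limit of 3 counts. As in every called gene, the groups did not overlap in either. Ccr3 and Ccr1, at 635 and 157 RPKM in CN against 40.7 RPKM for Cxcr2, were not called (-0.03 ± 0.09 and -0.22 ± 0.09). In 3 of 14 alternative fits Ccr1 was called lower.

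Among 34 cytokine receptor genes 10 rose and 9 fell. Of those that rose, Il12rb1, shared by the IL-12 and IL-23 receptors, went from 0.443 and 0.445 to 25.6 and 22.2 CPM (5.75 ± 0.32), Il15ra from 3.38 and 2.94 to 76.7 and 67.3 CPM (4.51 ± 0.14), and Il21r from 1.88 and 0.925 to 16.6 and 17.2 CPM. Il2rg, the common γ chain, went from 38.2 and 31.9 to 259.5 and 234 CPM (2.81 ± 0.10). Of those that fell, Il1r2, a decoy, fell by 1.83 ± 0.24, Il18r1 by 1.15 ± 0.14, Il18rap by 0.92 ± 0.09, Il1rap by 0.57 ± 0.10 and Il1rl1, the IL-33 receptor, by 0.49 ± 0.09. Il6ra fell by 1.64 ± 0.24. Csf3r (chromosome 4, 126024550 to 126044440), the G-CSF receptor, had 432 and 400.0 CPM in CN and 32.7 and 27.6 CPM in E1, and fell by 3.79 ± 0.26 on the log2 scale (adjusted p = 3.06e-05). The sum of neutrophil markers, which has Csf3r and Cxcr2 among its members, was lower, as given above. Of 15 such markers 7 were called lower and 1, Ly6g, higher (log2 fold change 3.21). The part of neutrophils in the falls of Csf3r, Cxcr1 and Cxcr2 was not tested. The IL-5 receptor Il5ra (0.07 ± 0.08) and its shared chain Csf2rb (-0.13 ± 0.09) were not called, nor was Il4ra (-0.14 ± 0.09).

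Of 13 cytokine genes of type 1 inflammation 8 rose and 0 fell. Il12b had 0.232 and 0.204 CPM in CN and 14.9 and 11.8 CPM in E1, Tnf had 6.49 and 2.46 CPM in CN and 34.5 and 30.1 CPM in E1, and Il6 had 1.25 and 2.26 CPM in CN and 18.9 and 24.4 CPM in E1. Il1b rose by 1.05 ± 0.15. Il18bp, a soluble inhibitor of IL-18, went from 11.7 and 19.2 to 249 and 229.8 CPM (3.96 ± 0.21). Il4 (74.8 and 69.5 CPM in CN and 79.2 and 71.7 CPM in E1), Il5 (531 and 416 CPM in CN and 451 and 326 CPM in E1) and Il13 (14.4 and 9.93 CPM in CN and 12.3 and 5.86 CPM in E1) were not called, though Il13 was called lower (-1.05) without E1 replicate 1. The protocol names IL-5 transgenic donors, and whether the Il5 reads came from the transgene or the native gene was not tested. The growth factor of macrophages, Csf1, rose by 0.62 ± 0.08, and Csf1r, its receptor, by 0.84 ± 0.10.

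Of 9 genes of tryptophan and itaconate metabolism 4 rose and 0 fell (1 fell without CN replicate 2 or E1 replicate 1). Of 12 genes of nitric oxide and arginine metabolism 4 rose and 1 fell (0 without CN replicate 2 or E1 replicate 1, 2 without E1 replicate 2). Beside these counts, the shares over all tested genes were 9.19% higher and 8.08% lower. Acod1, which makes itaconate, went from 7.48 and 8.20 to 352 and 398 CPM (5.58 ± 0.20). Nos2, the inducible nitric oxide synthase, went from 2.55 and 2.80 to 35.6 and 58.0 CPM (4.13 ± 0.30), the arginine transporter Slc7a2 from 0.0843 and 0.0481 to 2.53 and 4.40 CPM and the citrulline-recycling enzyme Ass1 from 1.25 and 1.24 to 14.6 and 14.7 CPM. The arginase gene Arg2 fell by 1.02 ± 0.23, a call lost without CN replicate 2 or E1 replicate 1 (adjusted p up to 0.100). Wars, the tryptophanyl-tRNA synthetase, went from 61.5 and 72.2 to 1373 and 1261 CPM (4.30 ± 0.11), and Kynu of the kynurenine pathway from 0.306 and 0.0961 to 3.61 and 3.42 CPM, while Ido1 was at 0.474 and 0.529 CPM in CN and 1.68 and 0.777 CPM in E1 (1.30 ± 0.48, not called, but called at 1.75 without E1 replicate 2). Cybb, the catalytic subunit of the phagocyte oxidase, rose by 0.67 ± 0.10. Steap4, a metalloreductase, fell from 4.90 and 5.06 to 0.0358 and 0.0273 CPM, a level at the limit of 3 counts in each E1 library.

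Prostaglandin synthesis genes changed in both directions. Ptgs2, the inducible cyclooxygenase, went from 0.727 and 0.997 to 15.7 and 20.7 CPM and Ptges from 0.717 and 0.420 to 5.47 and 7.01 CPM. Ptgs1, the constitutive enzyme, fell from 157 and 116 to 61.5 and 52.1 CPM (-1.26 ± 0.17). Alox15, which makes the lipid mediators eosinophils are known for, was at 3225 and 3009 CPM in CN and 2356 and 1947 CPM in E1 (-0.54 ± 0.12, adjusted p = 0.0152), and lost its call without CN replicate 1 or E1 replicate 2 (adjusted p up to 0.0794). Alox5 (-0.28 ± 0.11) and its activating protein Alox5ap (-0.06 ± 0.09) were not called, although Alox5 was called lower with scaling by library totals (adjusted p = 0.0476). Of 17 eicosanoid genes 3 rose and 5 fell, 3 without CN replicate 1 or E1 replicate 2.

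Complement components and sensors of microbes changed in both directions. C4b went from 1.44 and 1.35 to 105 and 114 CPM (6.29 ± 0.23) and Cfb, factor B of the alternative pathway, from 3.16 and 5.33 to 109.5 and 119 CPM (4.75 ± 0.24). C3 rose by 1.45 ± 0.24 and the surface inhibitor Cd55 by 1.24 ± 0.11. Cfp, which encodes properdin, fell by 1.38 ± 0.18 and Cd93 by 1.89 ± 0.25. Of 19 complement genes 6 rose and 3 fell. Among the sensors 8 of 30 rose and 4 fell. The shares of all tested genes were 9.19% higher and 8.08% lower. The LPS co-receptor Cd14 went from 3.90 and 3.48 to 21.1 and 18.9 CPM, and Nod1, a sensor of peptidoglycan, from 33.8 and 33.8 to 187 and 178 CPM (2.43 ± 0.06, adjusted p = 1.39e-07). The flagellin receptor Tlr5 fell from 4.56 and 4.30 to 0.0239 and 0.177 CPM and the RNA sensor Tlr8 from 4.65 and 3.44 to 0.334 and 0.736 CPM. Tlr2 (-0.06 ± 0.21) and Tlr4 (-0.35 ± 0.20) were not called.

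Genes of inflammatory cell death mostly rose and survival genes split. Casp1 had 14.2 and 15.7 CPM in CN and 127 and 104 CPM in E1, Casp4 had 5.00 and 6.13 CPM in CN and 42.6 and 38.7 CPM in E1, and their substrate Gsdmd rose by 0.74 ± 0.09. Mlkl, the pore former of necroptosis, rose by 0.93 ± 0.14, and Ninj1, which ruptures the plasma membrane of dying cells, by 0.69 ± 0.09. Gsdme, a gasdermin cut by caspase-3, fell from 26.4 and 19.8 to 7.50 and 6.71 CPM (-1.70 ± 0.18). Nlrp3 (0.65 ± 0.23) and Pycard (0.29 ± 0.15) were not called. Of 16 such genes 9 rose and 1 fell. Bcl2, a brake on mitochondrial apoptosis, had 23.3 and 15.6 CPM in CN and 4.53 and 3.86 CPM in E1 (-2.21 ± 0.19), and Bcl2l1, which encodes BCL-XL, had 62.2 and 55.7 CPM in CN and 30.7 and 26.8 CPM in E1 (-1.04 ± 0.08). Mcl1, at 1234 and 1242 CPM in CN, was not called (0.29 ± 0.11). The anti-apoptotic genes Birc2 and Birc3 rose, as given above, and Cflar was called higher, by 0.66 to 0.79 over 14 alternative fits. The executioner gene Bak1 rose by 1.21 ± 0.12 and Pmaip1, which encodes NOXA, by 0.97 ± 0.13, whereas Bmf, another sensitizer, fell by 0.97 ± 0.15. Of 16 anti-apoptotic genes 5 rose, 3 of them without CN replicate 1, CN replicate 2 or E1 replicate 2, and 3 fell.

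Surface and adhesion genes included some of the largest shifts. Of 7 Ly6 genes, which are similar copies, 6 rose, from Ly6i (0.506 and 0.240 to 108 and 82.7 CPM) to Ly6e (1.88 ± 0.11). Icam1, a ligand of the β2 integrins, went from 18.1 and 18.1 to 192 and 182 CPM (3.37 ± 0.12). Itga4 and Itgb7, which pair as the gut-homing integrin, rose by 1.05 ± 0.12 and 0.91 ± 0.14 to 875 and 984 CPM and 2084 and 1687 CPM in E1. Jaml, a junctional adhesion molecule, fell by 2.82 ± 0.35. The collagen-binding inhibitory receptor Lair1 went from 9.96 and 15.1 to 139 and 158 CPM (3.57 ± 0.19), while Cd33, a siglec, went from 74.4 and 83.4 to 13.7 and 17.4 CPM (-2.34 ± 0.15) and Siglecg fell by 0.75 ± 0.11. Cd22, another siglec, rose by 2.05 ± 0.14, and Pilra, an inhibitory receptor, by 2.33 ± 0.27. Of 23 siglecs and inhibitory receptors 3 rose and 4 fell, 7 without CN replicate 2. For comparison, 9.19% of all tested genes were called higher and 8.08% lower. Fcgr4, an activating antibody receptor, rose by 2.34 ± 0.19 and Fcgr2b, the inhibitory one, fell by 0.73 ± 0.13. Procr, the protein C receptor, went from 0.0949 and 0 to 12.5 and 13.7 CPM, and Nrp2, a co-receptor of VEGF, from 0.696 and 0.336 to 11.6 and 13.4 CPM. In the lysosome, Lamp1 and Lamp2 rose by 1.01 ± 0.08 and 0.66 ± 0.06, and the cathepsin genes Ctsz and Ctso by 1.01 ± 0.09 and 1.28 ± 0.10.

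Matrix genes and genes shared with other myeloid cells were among the largest falls. Fn1, fibronectin, had 41.0 and 23.1 CPM in CN and 0.561 and 0.491 CPM in E1 (-5.92 ± 0.43, adjusted p = 3.69e-05). Vcan, a proteoglycan, fell from 11.4 and 7.68 to 0.358 and 0.750 CPM, and the collagenase Mmp8 from 113 and 112 to 15.8 and 15.5 CPM. Of 19 matrix genes 10 fell and 3 rose. Mmp14, a membrane-bound collagenase, rose from 1.53 and 0.613 to 17.1 and 19.3 CPM. Apoe had 48.8 and 28.2 CPM in CN and 2.03 and 2.04 CPM in E1, and Clec10a, a lectin of alternatively activated macrophages, had 4.12 and 1.91 CPM in CN and 0.0717 and 0.0682 CPM in E1. Fn1, Vcan and Apoe were higher in CN replicate 1 than in CN replicate 2, by less than the gap to E1. Of 23 alternative activation genes 10 fell and 6 rose, and without CN replicate 1 the fallers were 6. Hbegf, a growth factor, fell by 2.04 ± 0.17. The monocyte marker Cx3cr1 (4.66 and 3.41 to 0.956 and 1.58 CPM) was lower alongside. It was among 3 of 20 monocyte, macrophage and dendritic cell markers called lower, whereas 7 were called higher. The part of such cells in these falls was not tested. Cx3cr1 lost its call without CN replicate 1 or E1 replicate 1 (adjusted p up to 0.0957).

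Other large falls were in single genes of varied function. Tns1, which links integrins to actin, fell from 14.3 and 13.2 to 0.681 and 1.02 CPM. Car4, a carbonic anhydrase at the cell surface, fell from 338 and 279 to 50.0 and 37.6 CPM (-2.82 ± 0.25), and Lipg, endothelial lipase, from 95.6 and 116 to 14.5 and 19.0 CPM. Adra2a, an adrenergic receptor, had 352 and 319 CPM in CN and 101 and 83.0 CPM in E1, and Slc6a4, the serotonin transporter, had 60.0 and 47.1 CPM in CN and 16.3 and 17.9 CPM in E1. Ltb4r2, a leukotriene B4 receptor, fell by 2.23 ± 0.17, and Cd177, a neutrophil antigen, by 2.59 ± 0.25. As in every called gene, the groups did not overlap in these 7. All 9 Ugt1a genes fell, Ugt1a7c from 20.5 and 17.2 to 1.66 and 2.06 CPM, but they share their last exons, so that these are not separate measurements.

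Most eosinophil identity genes were not called, and some changed. Over all tested genes 9.19% were called higher and 8.08% lower. Of 9 granule genes 1 fell, Galnt6 (666 and 699.7 to 439.9 and 434 CPM), and Prg2, major basic protein, was at 449.9 and 509 CPM in CN and 479.5 and 393 CPM in E1. Of 33 surface receptors 4 rose and 5 fell, 3 without CN replicate 2. Siglecf, a lineage marker, was at 1004 and 937 CPM in CN and 786 and 701 CPM in E1 (-0.38 ± 0.09, adjusted p = 0.0174), a call lost without CN replicate 1 or E1 replicate 2 (adjusted p up to 0.103). Of 15 lineage factors 2 rose, 1 without CN replicate 2 or E1 replicate 2, and 3 fell. Gata1 was not called (0.04 ± 0.08). Xbp1, which eosinophil precursors need to survive, fell from 677 and 714 to 309 and 320.5 CPM (-1.14 ± 0.08, adjusted p = 3.21e-05), Runx1 by 0.64 ± 0.07 and Cebpa by 1.20 ± 0.19. For Ccr3, whose log2 fold change was -0.03 ± 0.09, and Gata1 the standard error was under 0.10, whereas for Epx (-0.10 ± 0.38) and Ear1 (0.27 ± 0.47) it leaves room for sizeable changes. The cholesterol synthesis genes were spread widely between replicates: Sqle was at 57.2 and 22.1 CPM in CN and 27.4 and 12.6 CPM in E1. Of 25 such genes, Mvd alone was called (0.81 ± 0.06), and 8 were called lower without CN replicate 2. Of 22 cell cycle genes, E2f1 alone was called (0.77 ± 0.11).

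STAT5 targets, which IL-5 family cytokines drive in eosinophils, fell more often than they rose. Of 20 tested, 9 fell and 4 rose. Besides Bcl2, Bcl2l1 and Cish, Id1 fell from 111 and 79.0 to 42.2 and 25.1 CPM. Pim1, at 733 and 790.1 CPM in CN, was not called (0.07 ± 0.08), and Ccnd2 rose by 1.93 ± 0.22. Of 28 immediate early and MAPK feedback genes 12 rose and 0 fell, 7 without E1 replicate 1. Nr4a3, an orphan nuclear receptor, went from 1.21 and 0.553 to 14.6 and 10.3 CPM, and Fos (-0.55 ± 0.26) was not called.

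The second experiment, with its own control, gave a test of whether 16 chosen genes answered the type 1 cytokines differently from the mixture given to E2. The difference, E1 minus CN minus the change from E0 to E2, was called for 13 of the 16, and for 25.2% of all genes. The 16 were chosen by hand and include genes with large changes from CN to E1, which are part of this difference. Their count therefore cannot be weighed against the share of all genes. The 2 contrasts share no library, but the experiments also differ in having IL-5 in the control culture. Irgm1 rose under IFN-γ and TNF-α and was not called from E0 to E2 (-0.03), with 13.8 ± 0.924 CPM in CN, 839 ± 93.0 in E1, 13.6 ± 0.989 in E0 and 13.3 ± 0.719 in E2 (SD, n = 2 each), a difference of 5.96 ± 0.15. Cd274 rose in both, to 924 ± 18.6 CPM in E1 and 129 ± 11.2 CPM in E2, by 2.00 ± 0.20 more in the first. Bcl2 moved in opposite directions, to 4.19 ± 0.473 CPM in E1 from 19.5 ± 5.45 in CN, and to 50.9 ± 1.99 in E2 from 15.3 ± 1.52 in E0. Csf3r fell in both, by 2.38 ± 0.34 further under IFN-γ and TNF-α. Apoe fell in both, to 2.04 ± 0.0101 CPM in E1 and 2.39 ± 0.364 CPM in E2, and Ccl22 rose in both, to 28.3 ± 12.1 and 100.1 ± 27.4 CPM. Neither difference was called (1.18 ± 0.47 and -0.30 ± 0.62), which does not show that the responses were equal. The remaining gene, Cxcl9, had no count in E0, so its difference could not be estimated.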

How the data were processed

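Per the submitters' processing notes, which give no roles or versions, the tools were STAR and featureCounts and the build mm10. The strand setting was not stated. The deposited table holds raw read counts per gene made by the authors, with Ensembl IDs. RNA was prepared with a TruSeq Stranded mRNA kit per the labels' protocols. A row without a gene name, equal to the library totals (100% of them), was left out, and 15730 of 15917 genes received a symbol. Gene positions are from GENCODE M21 (mm10) and promoter windows from RefSeq (GRCm38.p6). The 8 libraries held 60809057 to 95065752 counts.

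Genes were filtered with filterByExpr, which left 15913, scaled by TMM and tested with edgeR 4.0.16 (quasi-likelihood F test, 1 mean per group, 8 libraries, 4 residual degrees of freedom, Benjamini-Hochberg over all genes, called at an adjusted p below 0.05) in R 4.3.3. Fold changes are log2 with a standard error from the F statistic, and levels are CPM after TMM scaling. Scripts were tested on simulated data. Alternatives used limma 3.58.1, DESeq2 1.42.0, other scalings, filters and blocks, and each library left out. The gene lists and members were chosen with earlier results of these data known.

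Genes were named by a rule: the 15 largest rises and falls at 10 CPM or more without overlap, up to 4 called members each way of each list at 5 CPM or more (2 members where none was called), all receptor and feedback genes, and 16 genes compared with the second experiment. A further 74 were named after their values were seen. A few genes counted in the lists are not reported here by name.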

Additional observations from a re-analysis of the deposited data

Results flagged for a closer look

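For 13 of the 16 genes set against the second experiment, the change from CN to E1 differed from the change from E0 to E2. The test was edgeR's quasi-likelihood test of the difference, which covers all genes and calls 25.2% of them. The 16 were chosen by hand and include genes with large changes from CN to E1. Their count therefore cannot be weighed against that share. The difference was positive, so that the log2 fold change under IFN-γ and TNF-α was the higher one, for 8 genes. It was 9.01 for Gbp2 and 5.96 for Irgm1, both vacuole-directed GTPases, 6.39 for the chemokine gene Cxcl10 and 3.82 for the transcription factor gene Irf1. It was 5.22 for Nos2, 3.15 for the class II gene H2-Ab1, 2.00 for Cd274 and 1.75 for the adhesion gene Icam1.

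It was negative for 5 genes. For Il6 it was -1.99, with a larger rise from E0 to E2, and for Ccl17, a ligand of CCR4, it was -5.25. For Fn1 it was -4.95 and for Csf3r -2.38, both of which fell further in E1. For Bcl2 it was -3.95, and Bcl2 fell in E1 and rose in E2. The experiments also differ in their control medium, and that difference cannot be told apart from the cytokines.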

How the results depend on the processing

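The 2749 calls numbered 2736 to 3088 under other scalings, filters and limma-voom, and 3155 with DESeq2. Fitting only the 4 libraries left 775 genes lower. With a replicate block within each experiment there were 5520 calls, 2786 higher and 2734 lower, and with 1 block term 2842. The labels do not say that replicate numbers mark shared animals. Same-numbered CN and E1 libraries matched in sex, as given above, and their deviations correlated at 0.499. With only 2 pairs of libraries per experiment, whether they share an animal remains a hint. The main fit had no such block, so a gene not called there may be called when the pairing is used. Leaving out 1 library gave 1904 to 2368 calls, 1133 to 1358 higher and 743 to 1010 lower, the fewest calls without CN replicate 1. An arm then has 1 library, which is assumed to vary like the other groups. None of the named genes called reversed, 285 of 321 kept the call in all 14 alternatives, and 36 lost it in at least 1. Of the 81 named genes not called, 28 were called in at least 1, among them Alox5 with the replicate block within each experiment (-0.29, adjusted p = 0.000609). Of the 16 genes compared between experiments, 13 or 14 were called in the alternatives run. With 2 libraries a group, small changes may be missed.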
